A study of Mus musculus with 11 samples.

Results

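The 10 genes described here encode transcription factors of the mouse embryonic stem cell: Pou5f1 (Oct4), Sox2 and Nanog, the core factors, and Klf2, Klf4, Esrrb, Tbx3, Zfp42 (Rex1), Tfcp2l1 and Nr0b1 (Dax1), which belong to the naive network. They were chosen by symbol from the 55228 symbols of the count table. All 10 were present, and all 10 passed the filter on low counts that left 16420 genes to test. RNA came from 11 libraries of 1 line of mouse embryonic stem cells, CTCF-AID (EN52.9.1), in which the endogenous CTCF protein, a DNA-binding architect of chromosome loops, carries a degron and is degraded when auxin is added. Every group is this line, grown in medium with 15% fetal bovine serum and 1000 U/mL LIF, and every group therefore carries the degron. EV untreated (3 libraries) received no auxin and is labelled wild-type, EV auxin (2 libraries) received 500 µM auxin and is labelled as depleted of endogenous CTCF, FL auxin (3 libraries) received auxin and reintroduced FL CTCF, and H373R auxin (3 libraries) received auxin and reintroduced CTCF with the H373R substitution. The duration of auxin and the level of the reintroduced proteins are not given in the labels, and no auxin-treated line without the degron was analysed here. FL and H373R cells without auxin were not analysed either. An effect of the reintroduced protein therefore cannot be told apart from any other difference between EV, FL and H373R cells. The titles name the H373R libraries ZF4.

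In embryonic stem cells Oct4 and Sox2 bind DNA together at a composite element and, with Nanog, keep the pluripotent state. LIF acts through its receptor and STAT3, whose output includes Klf4 and Tfcp2l1, while Klf2, Esrrb and Tbx3 sustain the same state in partly interchangeable ways. Nanog, Zfp42, Esrrb and Klf4 are also known to vary from cell to cell in serum and LIF, and falling Nanog together with rising Gata6 and Gata4 is the textbook mark of the primitive endoderm fate. A bulk library averages over such cells, so fewer cells of a type and less RNA per cell cannot be told apart in any value below.

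The study concerned CTCF and G-quadruplexes, four-stranded structures that can form in G-rich DNA, so the stretch of 250 bases before the annotated start site was read for the members (RefSeq sequences, GRCm38.p6). Of the 10 members 9 were matched, with 12 start sites between them, and Tbx3 was not. The windows of the 4 members whose levels moved most between groups are shown, 5′ to 3′ on the strand of the gene. Capitals mark matches to the motifs searched on both strands: a G-quadruplex pattern (4 runs of at least 3 G, with 1 to 7 bases between runs), the GC box GGGCGG, the octamer ATGCAAAT that Oct4 binds, the Sox2 and Oct4 composite element (its letters are the capitals of the Nanog window, read on the other strand, with any base between the Sox2 and Oct4 sites), the Esrrb element TCAAGGTCA, the STAT element TTCNNNGAA and the CTCF consensus.
Nanog, chr6:122707239-122707488, plus strand: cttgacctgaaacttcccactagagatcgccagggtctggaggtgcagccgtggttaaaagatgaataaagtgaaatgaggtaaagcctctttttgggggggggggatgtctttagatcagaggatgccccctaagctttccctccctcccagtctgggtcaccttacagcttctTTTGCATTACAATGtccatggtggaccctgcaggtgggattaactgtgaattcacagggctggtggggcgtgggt
Zfp42, chr8:43307010-43307259, minus strand: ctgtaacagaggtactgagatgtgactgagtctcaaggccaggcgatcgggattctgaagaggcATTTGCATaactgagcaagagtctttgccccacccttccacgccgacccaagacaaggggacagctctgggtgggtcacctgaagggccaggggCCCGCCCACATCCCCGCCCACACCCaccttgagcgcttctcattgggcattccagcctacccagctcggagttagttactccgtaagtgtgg
Klf4, chr4:55532476-55532725, minus strand: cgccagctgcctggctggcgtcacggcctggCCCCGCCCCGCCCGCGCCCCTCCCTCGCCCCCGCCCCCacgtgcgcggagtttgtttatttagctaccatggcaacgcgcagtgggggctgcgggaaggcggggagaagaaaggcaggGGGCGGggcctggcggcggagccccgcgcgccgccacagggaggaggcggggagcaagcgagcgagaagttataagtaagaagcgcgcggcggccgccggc
Nr0b1, chrX:86191525-86191774, plus strand: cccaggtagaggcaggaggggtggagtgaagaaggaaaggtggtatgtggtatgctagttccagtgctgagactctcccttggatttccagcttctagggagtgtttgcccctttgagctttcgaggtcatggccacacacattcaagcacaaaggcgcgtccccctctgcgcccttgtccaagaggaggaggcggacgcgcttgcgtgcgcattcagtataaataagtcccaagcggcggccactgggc

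The composite element was found only before Nanog, -75 to -62 in the window shown, in 2 of 32851 promoter windows of the same length (0.00610%). These 2 windows belong to the 2 Nanog start sites, overlap, and hold the same copy of the element. Its letters follow the Nanog window and were added to the search after that sequence had been read. The match before Nanog was therefore fixed in advance, and no conclusion is drawn from its rarity elsewhere. The letters of the octamer overlap those of the composite element. The octamer was found in Zfp42, from -186 to -179, and in 1.60% of all windows. The G-quadruplex pattern was found in 5 of the 12 windows (Pou5f1, the second Nanog start, Sox2, Klf4 and Zfp42), against 16.7% of all windows, and the GC box in 5 (Pou5f1, Sox2, Klf2, Klf4 and Zfp42), against 32.7%. In Sox2, Klf4 and Zfp42 matches to these 2 patterns overlap. The STAT element was found in 1 window, of Esrrb, and the other 2 motifs in none of the 12. The Nr0b1 window held no match. The capitals are letter matches only.

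Per transcript length, in TPM (a length-scaled share of transcripts, which can be set side by side between genes), the 10 factors spanned more than a 10-fold range. Over all 11 libraries Pou5f1 had a mean of 1684 TPM, Zfp42 1263, Nanog 1043 and Sox2 998, which placed them at ranks 35, 56, 80 and 86 of the tested genes. Klf2 (518 TPM), Klf4 (502) and Esrrb (435) formed a middle tier. Tfcp2l1 (148), Nr0b1 (114) and Tbx3 (111) were lowest. Pou5f1 and then Zfp42 led in every group, with library ranges that did not overlap each other or the next gene. Below them the order differed between groups. Nanog was above Sox2 in 3 of 3 EV untreated and 2 of 2 EV auxin libraries, but in 0 of 3 FL libraries and 1 of 3 H373R libraries, and the ratio of Nanog to Sox2 TPM was 1.23 ± 0.00513 (SD, n = 2) in EV auxin and 0.879 ± 0.0185 (SD, n = 3) in FL. Nr0b1 was above Tbx3 in 3 of 3 EV untreated libraries and in 0 of 2 EV auxin and 0 of 3 H373R libraries. Klf4 was below Klf2 in all 3 EV untreated libraries and above it in all 3 H373R libraries. In EV untreated cells the neighbours Nanog and Sox2, Klf2 and Esrrb, and Tfcp2l1 and Nr0b1 overlapped in range. The sum of the 10 factors was 7301 ± 46.6 TPM (SD, n = 3) in EV untreated, 7071 ± 50.5 (SD, n = 2) in EV auxin, 6511 ± 126 (SD, n = 3) in FL and 6463 ± 50.7 (SD, n = 3) in H373R libraries. Nanog and Zfp42 had the largest TPM differences between EV untreated and both FL and H373R. TPM is not rescaled between samples. For FL against EV auxin the median log2 fold change of all genes analysed was -0.067 on log2(TPM + 1), against -0.014 on scaled counts. How much of the differences between the sums is such a shift of scale was not tested.

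**Figure D1:**
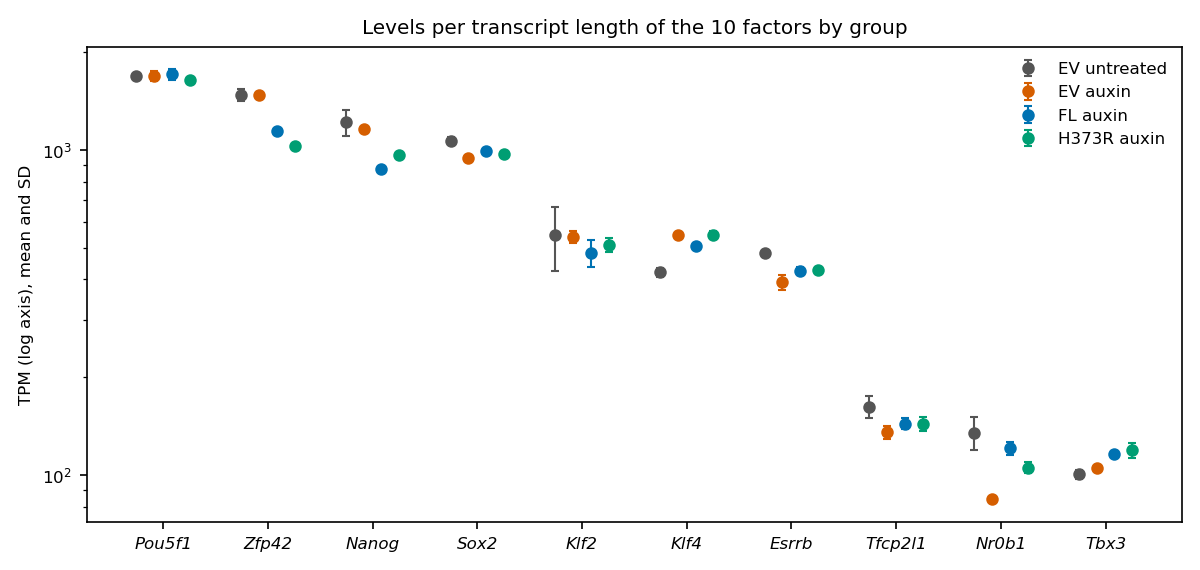
TPM on a log axis for the 10 factors, with 1 point per group (mean) and bars for the SD over 3 libraries (2 for EV auxin). Pou5f1 lies highest in every group, Zfp42 and Nanog are lower in FL and H373R than in both EV groups, and Nr0b1 is lowest in EV auxin.

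The total count per library was 13465241 to 29902246, and the members had between 704 and 30466 counts in a library. Ctcf RNA was 325 ± 27.5 CPM in EV untreated, 361 ± 3.63 in EV auxin, 337 ± 11.3 in FL and 321 ± 13 in H373R libraries (SD, n = 3, 2, 3 and 3). Auxin acts on the protein, so these values check neither its loss nor the reintroduced proteins. Between samples, levels are given as TMM-scaled CPM (counts scaled to a common library size by edgeR), and differences as log2 fold changes with standard errors. The quasi-likelihood test of edgeR was used, with p-values adjusted by Benjamini and Hochberg over all 16420 genes, and a gene is called when its adjusted p is under 0.05. The labels do not say that replicates were separate cultures, so p-values measure the spread between these libraries. EV untreated replicate 1 stood apart: its deviation from the group mean followed the GC content of genes (r = 0.56 across 16242 genes, which are not independent). Each count of called members or list genes below is also given without that library. A weaker trend of the same sign was seen in FL replicate 1 (r = 0.32), and the other libraries lay from -0.38 to 0.15. Pou5f1 shares exonic bases with the antisense gene Gm19553, Tbx3 with the antisense gene Tbx3os1 and Tfcp2l1 with the snRNA gene Gm23497, and pseudogenes of Nanog and Zfp42 are listed in the table. Whether strand was used in counting is not given in the sources used here, so these 5 genes may hold or lose some reads.

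Auxin in EV cells lowered Nr0b1, Esrrb, Tfcp2l1 and Sox2 and raised Klf4, and no member changed by 2-fold. Of the 10 members, 5 were called, 4 lower (Sox2, Esrrb, Tfcp2l1 and Nr0b1) and 1 higher (Klf4), while 20.7% of all tested genes were called (11.3% higher and 9.40% lower). Without EV untreated replicate 1, 6 members were called, Nanog being added, and the number of all genes called rose from 3392 to 5444. The median log2 fold change of the members was -0.068, against 0.0087 for all tested genes, and the median size of the change was 0.15 against 0.16. Among the 4440 tested genes at least as abundant as the lowest member, 19.5% were called in this comparison. In the comparisons below that share was 32.1% for FL and 31.9% for H373R against EV auxin, and 6.19% for H373R against FL. Against EV untreated it was 41.4% for FL and 49.1% for H373R.

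Nr0b1, a nuclear receptor without a DNA-binding domain that binds Oct4 and other factors, had the largest change. It measured 74.0, 61.0 and 59.9 CPM in the EV untreated libraries and 40.1 and 39.8 CPM in the EV auxin libraries. Both auxin libraries lay far below all untreated ones. The log2 fold change was -0.70 ± 0.085 (SE, edgeR adjusted p 2.43e-05), and -0.61 without EV untreated replicate 1, the highest of the 3. Esrrb, an orphan nuclear receptor and a main node of the naive network, measured 778, 776 and 774 CPM in EV untreated and 605 and 633 CPM in EV auxin libraries. The untreated values were almost identical and the log2 fold change was -0.33 ± 0.046 (SE, edgeR adjusted p 1.08e-04). Tfcp2l1, a STAT3 target, went from 372, 428 and 425 CPM to 327 and 341 CPM (log2 fold change -0.29 ± 0.066, SE, edgeR adjusted p 0.00548). Without EV auxin replicate 1 its adjusted p was 0.0718. Sox2 measured 591.6, 600.3 and 564 CPM before and 516 and 499 CPM after auxin, without overlap (difference on the log2 scale -0.20 ± 0.047, SE, adjusted p by edgeR 0.00538, or 0.0706 without EV auxin replicate 2).

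Klf4, like Tfcp2l1 a STAT3 target, moved the opposite way. It measured 353, 339 and 331 CPM in the EV untreated and 436 and 435 CPM in the EV auxin libraries, with no overlap. The log2 fold change was 0.35 ± 0.046 (SE, edgeR adjusted p 5.32e-05). Pou5f1 (993 ± 56.7 against 1011 ± 18.0 CPM), Zfp42 (725 ± 29.8 against 739 ± 31.8), Tbx3 (182 ± 1.37 against 177 ± 5.91) and Nanog (680.2 ± 18.7 against 725 ± 67.4; SD, n = 2 and 3 in each case) did not pass the test. Their 95% intervals were -0.13 to 0.077 for Pou5f1, -0.13 to 0.078 for Zfp42, -0.072 to 0.15 for Tbx3 and -0.23 to 0.043 for Nanog on the log2 scale. Nanog depended on 1 library: EV untreated replicate 1 had 648 CPM and the others 773 and 753, and without it the log2 fold change was -0.18 (edgeR adjusted p 0.00407).

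Klf2, a Krüppel-like factor kept up by MEK inhibition in naive cells, could not be placed. EV untreated replicate 1 held 339 CPM and the other replicates 236 and 233, and Klf2 had the highest GC content of the members (61.6%, above 97.7% of tested genes). After auxin in EV cells its log2 fold change was -0.045 ± 0.12 (SE, edgeR adjusted p 0.844) and turned to 0.14 without that library (edgeR adjusted p 0.0864). Klf2 passed the test in none of the 6 comparisons, and with that library its ranges overlapped between all groups. Without it the EV untreated values lay below both EV auxin libraries and all H373R libraries (244 to 267 CPM), and still within the FL range (226 to 271 CPM). Removing trends with GC content and transcript length, an analysis chosen after seeing the data that also removes trends shared by a whole group, called Klf2 lower in 5 of the 6 comparisons. The log2 fold changes were then -0.14 for EV auxin, -0.36 for FL and -0.38 for H373R against EV untreated, and -0.22 for FL and -0.24 for H373R against EV auxin (edgeR adjusted p 0.0499, 6.71e-06, 1.63e-06, 0.00359 and 0.00149). The direction for EV auxin was thus opposite in the 2 alternatives.

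**Figure D2:**
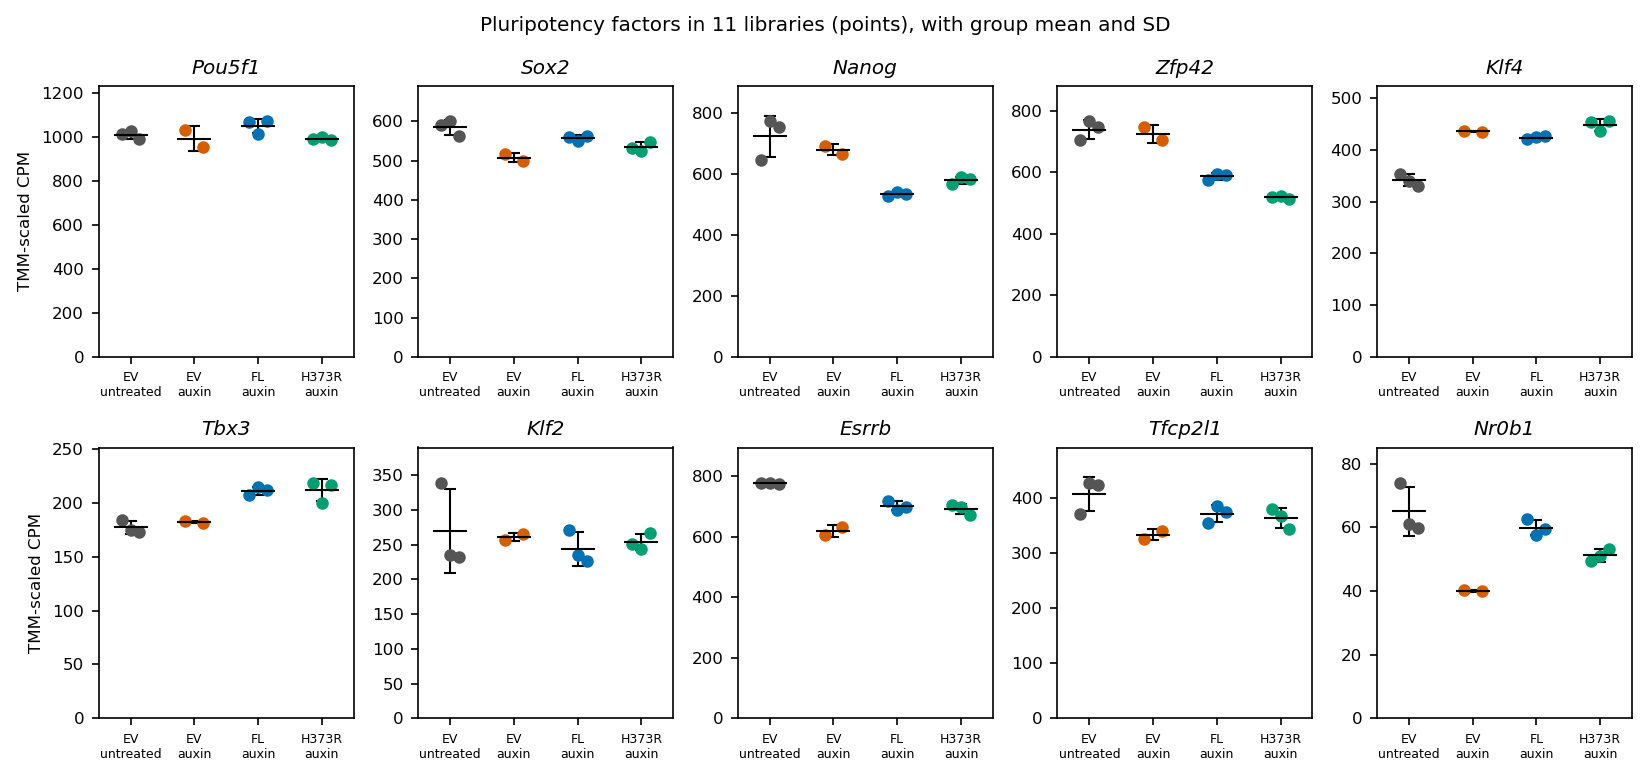
TMM-scaled CPM of the 10 factors in each of the 11 libraries (points, colored by group), with the group mean (line) and SD (bar), each axis from 0. Nr0b1 and Esrrb are lowest in EV auxin, Nanog and Zfp42 are low in both FL and H373R, and 1 EV untreated library stands above the rest for Klf2.

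The next question was how the FL libraries differed from the EV libraries under auxin. Between FL auxin and EV auxin 6 of the 10 members were called, 4 higher (Nr0b1, Tbx3, Esrrb and Sox2) and 2 lower (Nanog and Zfp42), where 24.5% of all tested genes were called (11.1% higher and 13.4% lower). Without EV untreated replicate 1 the count was 7, with Tfcp2l1 added, and 5800 of all genes were called, against 4016. Leaving out EV auxin replicate 1 left 3 members and leaving out EV auxin replicate 2 left 4, and the lone library is then assumed to vary like the other groups. On the scale of log2(TPM + 1) with limma 3 members passed, and the share of higher genes among all called was 28.1%, against 45.2% on counts. This comparison shares the EV auxin libraries with the one before, so opposite changes in the 2 are not independent.

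Nr0b1 measured 62.6, 57.7 and 59.4 CPM in FL libraries, all above both EV auxin libraries and close to the 2 lower EV untreated ones. Its log2 fold change was 0.58 ± 0.086 (SE, edgeR adjusted p 2.17e-04) against EV auxin and -0.12 ± 0.073 (SE, edgeR adjusted p 0.226) against EV untreated. Esrrb measured 719, 689 and 698 CPM in FL libraries. It was above EV auxin (log2 fold change 0.18 ± 0.046, SE, edgeR adjusted p 0.00922) and still below every EV untreated library (-0.14 ± 0.041, SE, edgeR adjusted p 0.0116). Its call against EV auxin was lost without EV auxin replicate 1 (edgeR adjusted p 0.113) and kept without replicate 2 (0.0282). Sox2 reached 558 ± 6.15 CPM (SD, n = 3) and lay 0.14 ± 0.047 above EV auxin on the log2 scale (SE, edgeR adjusted p 0.0437), a call that was lost in 13 of the 25 alternative analyses.

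Nanog and Zfp42, neither of them called between the EV groups, were lower in FL. Nanog measured 529.7, 541 and 534 CPM in FL libraries, below all 5 EV libraries. Its log2 fold change was -0.35 ± 0.063 (SE, edgeR adjusted p 0.00107) against EV auxin and -0.44 ± 0.057 (SE, edgeR adjusted p 3.06e-05) against EV untreated. Zfp42, a zinc finger protein used as a reporter of naive cells, measured 575, 596 and 590.4 CPM, again below all 5 EV libraries. Its log2 fold change was -0.30 ± 0.049 (SE, edgeR adjusted p 4.57e-04) against EV auxin and -0.33 ± 0.044 (SE, edgeR adjusted p 4.13e-05) against EV untreated. Tbx3, a T-box factor, was higher instead, at 207, 215 and 212 CPM. The 5 EV libraries held 173 to 184 CPM, and the log2 fold change was 0.21 ± 0.053 (SE, edgeR adjusted p 0.00892) against EV auxin. This Tbx3 call was lost in 5 of the 25 alternative analyses, among them limma on log2(TPM + 1) (limma adjusted p 0.0653). Klf4 stayed at 424 ± 3.26 CPM (SD, n = 3), between the EV groups and 0.31 ± 0.042 (SE, edgeR adjusted p 3.95e-05) above EV untreated on the log2 scale. Pou5f1 had 1052 ± 30.9 CPM (SD, n = 3) and was not called against either EV group. Tfcp2l1 lay at 355, 387 and 375 CPM, above both EV auxin libraries, and did not pass (log2 difference 0.16 ± 0.066, SE, edgeR adjusted p 0.0986).

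Against EV untreated, FL libraries thus differed in 5 members, 3 lower (Nanog, Zfp42 and Esrrb) and 2 higher (Klf4 and Tbx3), where 36.9% of all genes were called (17.7% higher and 19.2% lower). The count was 6 without EV untreated replicate 1, with Tfcp2l1 added, and 7706 of all genes were then called, against 6052. Of all genes called here 47.9% were higher on counts, against 36.9% with limma on unfiltered log2(TPM + 1).

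The same question was asked of the mutant. Between H373R auxin and EV auxin 5 members were called, 3 higher (Nr0b1, Tbx3 and Esrrb) and 2 lower (Nanog and Zfp42), where 21.7% of all tested genes were called (10% higher and 11.7% lower). Without EV untreated replicate 1 the count was 6, with Tfcp2l1 added, and 5397 of all genes were called, against 3570. Zfp42 was the 1 member still called without EV auxin replicate 1, and likewise without EV auxin replicate 2, so the other calls rest on having both. Without H373R replicate 1 the count was 3. On log2(TPM + 1) with limma 4 passed, and 35.4% of all called genes were higher, against 46.1% on counts.

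Zfp42 had its lowest level in H373R libraries, at 521, 524 and 514 CPM, below all 8 other libraries. The log2 fold change was -0.48 ± 0.049 (SE, edgeR adjusted p 2.80e-05) against EV auxin and -0.51 ± 0.044 (SE, edgeR adjusted p 4.19e-07) against EV untreated. Nanog measured 567, 589 and 583 CPM. Its log2 fold changes were -0.23 ± 0.063 (SE, edgeR adjusted p 0.0161) against EV auxin and -0.32 ± 0.056 (SE, edgeR adjusted p 2.84e-04) against EV untreated. Nr0b1 measured 49.3, 51.0 and 53.3 CPM, above both EV auxin libraries and below all EV untreated ones. It was 0.36 ± 0.085 (SE, edgeR adjusted p 0.00781) above EV auxin and -0.35 ± 0.073 (SE, edgeR adjusted p 0.00123) from EV untreated on the log2 scale. Tbx3 had 212 ± 10.3 CPM and Esrrb 691 ± 17.3 CPM (SD, n = 3 each), with log2 fold changes against EV auxin of 0.22 ± 0.053 and 0.16 ± 0.046 (SE). Klf4 had its highest group mean here, 448 ± 10.8 CPM (SD, n = 3). Against EV auxin neither Sox2 (535 ± 11.8 CPM) nor Tfcp2l1 (365 ± 18.3 CPM; SD, n = 3 each) passed, although every H373R library lay above both EV auxin libraries for each gene. Pou5f1 had 992 ± 6.07 CPM (SD, n = 3), and its 95% interval against EV auxin was -0.10 to 0.10 on the log2 scale.

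Against EV untreated, 8 of the 10 members were called in H373R libraries, 6 lower (Zfp42, Nr0b1, Nanog, Esrrb, Tfcp2l1 and Sox2) and 2 higher (Klf4 and Tbx3), where 44.4% of all genes were called (22.3% higher and 22.1% lower). The count stayed at 8 without EV untreated replicate 1, while all genes called rose from 7292 to 8927. The members not called were Pou5f1 and Klf2. The value of Tfcp2l1, -0.16 ± 0.059 (SE, edgeR adjusted p 0.0341), turned to 0.11 (edgeR adjusted p 0.00965) when trends with GC content and transcript length were removed. In that analysis all 10 members were called, Pou5f1 at -0.24 (edgeR adjusted p 4.29e-04) and Klf2 at -0.38 (1.63e-06). Of the 16420 tested genes it called 8156, against 7292 in the main fit.

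**Figure D3:**
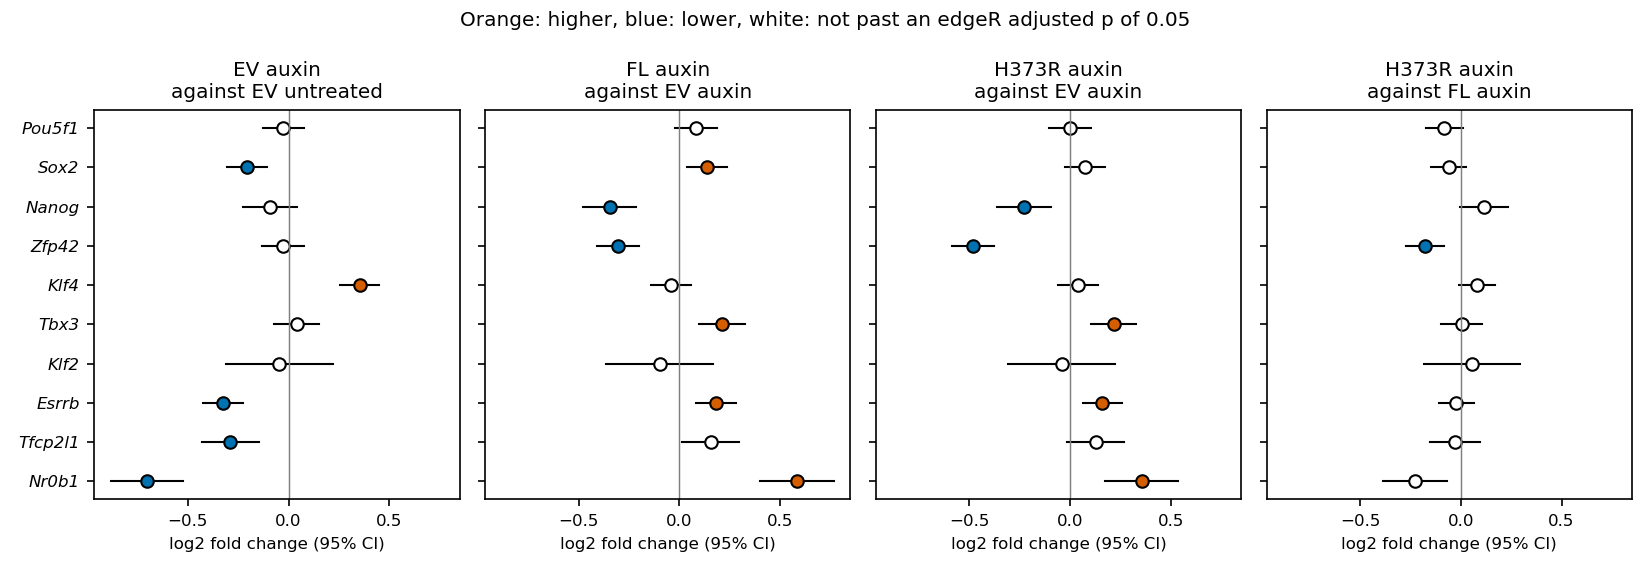
Log2 fold changes of the 10 factors (points) with 95% intervals (lines) in 4 comparisons. Filled points passed an edgeR adjusted p of 0.05, orange for higher and blue for lower in the first-named group. Nanog and Zfp42 are blue in both comparisons with EV auxin, and Zfp42 is the 1 filled point between H373R and FL.

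The direct comparison of H373R with FL, under the same treatment, separated 1 member. Zfp42 was lower in H373R than in FL (log2 fold change -0.18 ± 0.044, SE, edgeR adjusted p 0.0272), with all 3 H373R libraries below all 3 FL libraries, where 5.96% of all tested genes were called (3.14% higher and 2.82% lower). On log2(TPM + 1) with limma 65.0% of all called genes were higher, against 52.7% on counts. EV untreated replicate 1 enters this comparison only through the filter, the scaling and the shared spread. Without it 2 members were called, Nr0b1 being added, and 2323 of all genes, against 979. The Zfp42 call was lost when FL replicate 2, FL replicate 3 or any 1 of the H373R replicates was left out, with adjusted p of 0.0658 to 0.0982 and fold changes of -0.19 to -0.17. Nr0b1 was lower in each H373R library than in each FL library, by a log2 difference of -0.23 ± 0.074 (SE, edgeR adjusted p 0.0859). It passed in 5 of the 25 alternatives, among them the fit of these 6 libraries alone (edgeR adjusted p 0.00732). Nanog lay the other way, at 0.12 ± 0.057 (SE, edgeR adjusted p 0.264), with each H373R library above each FL library. For Esrrb, Tbx3 and Tfcp2l1 the 95% intervals of the difference were -0.11 to 0.064, -0.097 to 0.10 and -0.15 to 0.096 on the log2 scale. Removing GC content and length trends called 4 members here, Pou5f1 among them (log2 difference -0.16, edgeR adjusted p 0.037). It also raised the number of all genes called from 979 to 2197. Counting all members, 6 of 10 had library ranges that did not overlap between FL and H373R, where 28.8% of all tested genes had none.

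Likeness of profiles over the 11 libraries was measured as the root mean square difference of log2 CPM, each gene centred on its own mean. The measure is not scaled for the size of changes, so genes that vary little lie near each other. Around its own mean the root mean square was 0.0766 for Sox2, 0.112 for Esrrb and 0.257 for Nr0b1. Sox2 and Esrrb were each other's nearest member (0.0609), Tfcp2l1 was nearest to Esrrb (0.0673) and Pou5f1 to Sox2 (0.0681). Nanog and Zfp42 were each other's nearest (0.120), as were Klf4 and Tbx3 (0.1097). Nr0b1 and Klf2 were far from all others, with Esrrb nearest to Nr0b1 at 0.169 and Sox2 nearest to Klf2 at 0.164. Among the 10071 other genes whose log2 CPM averaged 3 or more, the closest profile was that of Jarid2, a Polycomb cofactor, for Zfp42 (0.0384), Mettl4 for Nanog (0.0437), Echdc2 for Nr0b1 (0.0651) and the class I gene H2-K1 for Klf4 (0.0304). For Esrrb it was Eif4ebp2 (0.0228), for Tfcp2l1 Cobl (0.0303), for Sox2 Pdia6 (0.0337) and for Tbx3 Cops6 (0.0347). The nearest of so many genes is close by selection, so these names describe profiles only.

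Genes around the network were read from lists of known roles. All lists here and below were chosen with earlier results of these data known. A list share above that of all genes may follow from that choice, and no conclusion is drawn from it. Of 15 genes of the LIF receptor and STAT3 pathway, 3 rose with auxin in EV cells and none fell (20.0%, against 20.7% of all tested genes), and without EV untreated replicate 1 3 were higher and 2 lower. The 3 were Jak1 (0.39 ± 0.054, SE), which is the kinase bound to the receptor, Socs3 (0.22 ± 0.054, SE), the feedback inhibitor induced by STAT3, and Cish (0.36 ± 0.094, SE), on the log2 scale. Against EV auxin 2 genes of this list were higher and 2 lower in FL (26.7%, against 24.5% of all genes), and 2 were higher and 4 lower in H373R (40.0%, against 21.7%). Between H373R and FL 1 was lower (6.67%, against 5.96%). Counts of higher and lower genes without EV untreated replicate 1 were 4 and 3 for FL, 5 and 4 for H373R, and 2 and 3 between them. Of 30 other naive and stem cell genes, 12 fell and 6 rose with auxin in EV cells (60.0%, against 20.7% of all genes, with a median log2 fold change of -0.15 against 0.0087). Fgf4, the autocrine FGF that drives exit from the naive state and a classic Oct4 and Sox2 target, fell from 221 to 149 CPM (log2 difference -0.57 ± 0.051, SE, edgeR adjusted p 1.19e-06). It was 0.49 ± 0.052 (SE) higher with FL and 0.29 ± 0.051 (SE) higher with H373R than in EV auxin. Dppa3 (Stella) rose by 1.05 ± 0.075 (SE) with auxin and Pecam1 by 0.42 ± 0.049 (SE). Against EV auxin 11 of the 30 were higher and 7 lower in FL (60.0%, against 24.5% of all genes), and 8 higher and 9 lower in H373R (56.7%, against 21.7%). Between H373R and FL 4 were higher and 5 lower (30%, against 5.96%). Counts of higher and lower genes without EV untreated replicate 1 were 7 and 15 after auxin, 15 and 9 for FL, 10 and 9 for H373R, and 4 and 11 between H373R and FL.

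Of 17 genes of the exit from naive pluripotency, 5 rose and 3 fell with auxin in EV cells (47.1%, against 20.7% of all genes). Sfrp2, a secreted Wnt antagonist, rose by 0.95 ± 0.070 (SE), the DNA methyltransferase gene Dnmt3b rose by 0.36 ± 0.046 (SE), and the FGF-ERK target Etv5 fell by 0.35 (log2 fold change -0.35 ± 0.044, SE). Against EV auxin 10 of the 17 were higher and 3 lower in FL (76.5%, against 24.5%), and 6 higher and 3 lower in H373R (52.9%, against 21.7%). Counts of higher and lower genes without EV untreated replicate 1 were 6 and 3 after auxin, 11 and 4 for FL and 8 and 4 for H373R.

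Markers of other cell types moved beside Nanog and Zfp42. Of 20 markers of endoderm, mesoderm, ectoderm and trophoblast 19 were tested. With auxin in EV cells 4 were higher and 1 lower (26.3%, against 20.7% of all genes). Among the 4 were the keratin gene Krt18 (log2 fold change 0.58 ± 0.070, SE), the intermediate filament gene Nes (0.59 ± 0.078) and the endoderm factor gene Gata4 (0.66 ± 0.11). Against EV auxin 12 were higher and 4 lower in FL (84.2%, against 24.5% of all genes, median log2 fold change 1.14), and 10 higher and 2 lower in H373R (63.2%, against 21.7%, median 0.50). Between H373R and FL none was higher and 8 were lower (42.1%, against 5.96%, median -0.36). For the markers, higher and lower counts without EV untreated replicate 1 were 6 and 3 after auxin, 12 and 4 for FL, 11 and 3 for H373R, and 1 and 10 between H373R and FL. None of the 20 was at 0 in any group. Their summed level was 613 to 699 TPM in EV untreated, 685 to 713 in EV auxin, 607 to 683 in FL and 658 to 681 in H373R libraries, and its order over groups did not follow the counts of called markers. Tubb3 (352, 365, 278 and 307 TPM in the same order, group means) and Tfap2c (124, 108, 87.9 and 100) made up most of it. The sum therefore says little about the markers at low levels. All of 7 endoderm genes (Gata4, Gata6, Sox17, Sox7, Pdgfra, Dab2 and Foxa2), a set singled out after its values were seen, were called higher in FL and in H373R than in EV auxin, also without EV untreated replicate 1. They summed to 19.1 ± 0.737 TPM (SD, n = 3) in EV untreated, 22.4 ± 0.432 (SD, n = 2) in EV auxin, 65.9 ± 2.60 (SD, n = 3) in FL and 43.3 ± 2.33 (SD, n = 3) in H373R libraries. This order was not particular to endoderm genes. In FL, H373R and EV auxin T had group means of 5.15, 2.40 and 1.78 TPM, Sox1 17.2, 12.4 and 7.25, and Krt8 49.6, 40.4 and 31.3. As given above, 4 of the 19 tested markers went the other way in FL.

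Gata6, the transcription factor that opposes Nanog in the inner cell mass, had 2.43 ± 0.0158 TPM in EV untreated, 2.64 ± 0.222 in EV auxin, 10.2 ± 0.0969 in FL and 6.19 ± 0.318 in H373R (SD, n = 3, 2, 3 and 3). Its log2 fold change against EV auxin was 2.00 ± 0.098 (SE, edgeR adjusted p 1.08e-08) in FL and 1.26 ± 0.10 (SE, edgeR adjusted p 4.33e-06) in H373R. Between H373R and FL it was -0.74 ± 0.074 (SE, edgeR adjusted p 2.31e-05). The endoderm genes were thus highest in FL, the group with the lowest Nanog, whereas Zfp42 was lowest in H373R. Gata6 stayed far below Nanog per length in every group. The part of these markers in the levels of the members was not tested. Of 10 fibroblast markers 7 were tested, with Acta2 (log2 fold change -0.45 ± 0.11, SE) and Thy1 (-0.19 ± 0.064) lower after auxin in EV cells (28.6%, against 20.7% of all genes). Fn1, the fibronectin gene, which stem cells also express, was at 1106 ± 18.1 CPM (SD, n = 3) before and 1232 ± 10 CPM (SD, n = 2) after auxin and was not called (log2 difference 0.16 ± 0.062, SE, edgeR adjusted p 0.09). Against EV auxin 5 were higher and none lower in FL (71.4%, against 24.5%), and 3 higher and none lower in H373R (42.9%, against 21.7%). Without EV untreated replicate 1 these were 7 and 5 higher, with none lower in either, and the same number, 2, was lower after auxin. The sum of the fibroblast markers was 508 to 521 TPM in EV untreated, 540 to 562 in EV auxin, 641 to 651 in FL and 601 to 683 in H373R libraries. Fn1 made up most of it (356, 403, 428 and 442 TPM in the same order, group means). Between H373R and FL none of the tested fibroblast markers was higher and 3 were lower (42.9%, against 5.96% of all genes). Without EV untreated replicate 1 there 4 were lower. The listed markers that were not tested, Lum, Postn and Dcn, had at most 2 counts in any library, unlike the tested ones.

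**Figure D4:**
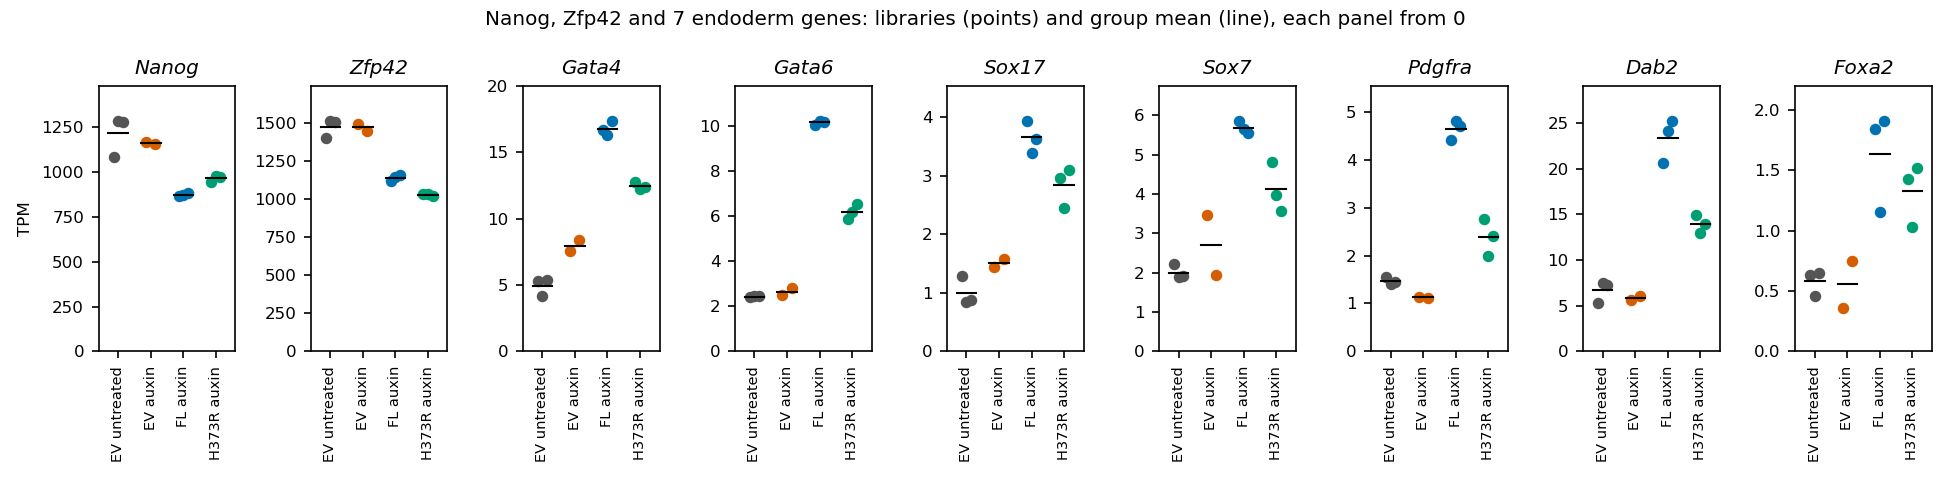
TPM of Nanog, Zfp42 and 7 endoderm genes in each library (points) with the group mean (line), each panel with its own axis from 0. Nanog and Zfp42 are lower in FL and H373R than in both EV groups, and the endoderm genes are highest in FL, with summed levels of 65.9 TPM in FL and 43.3 TPM in H373R against 22.4 TPM in EV auxin.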

How the data were processed

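Strand-specific libraries were made from 200 ng of RNA, per the labels' protocols. The authors deposited raw counts per gene symbol and TPM for the same 11 libraries. Per the submitters' processing notes, featureCounts, Subread 2.0.3 and DESeq2 were used with mm10 (GRCm38); aligner, annotation and settings are not given in the sources used here. EV auxin replicate 3 was not analysed here. Groups came from the titles.

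The count test was that of edgeR 4.0.16, run in R 4.3.3 (TMM, filterByExpr by group, quasi-likelihood F test of group means over all 11 libraries, Benjamini-Hochberg threshold 0.05), after tests on simulated counts. Log2 CPM used a prior count of 2. GC content and length came from GENCODE M21 (98.9% of tested genes). In place of the settings above, the 25 alternatives used RLE or upper quartile scaling, DESeq2 1.42.0, unfiltered genes, a minimum of 10 counts per library, the compared libraries alone, a replicate block, robust dispersion, a threshold of 0.01, limma 3.58.1 on log2(TPM + 1) with or without a filter (TPM of at least 1 in 2 libraries) and on log2(TPM + 0.1), and 1 library left out; removal of GC content and length trends, without and with the block, was added after seeing the data.

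Named by rule are all 10 members and the closest profile to each called member. So are the 3 genes of each of 5 lists with the smallest adjusted p after auxin. The other endoderm genes, the other named markers of mesoderm, ectoderm and trophoblast, and Lum, Postn and Dcn were named after their values were seen. The members and lists were chosen with earlier results of these data known.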

Additional observations from a re-analysis of the deposited data

How the results depend on the processing

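Of 1500 values of the members under the alternatives, 2 had the opposite direction with a call on either side: Tfcp2l1 between H373R and EV untreated, at 0.11 with GC content and length trends removed and 0.11 with the block as well. A further 41 values, over 13 pairs of member and comparison and from -0.083 to 0.14, changed sign without a call in either fit. Between EV auxin and EV untreated the 5 members called became 4 to 6 when a library was left out. With GC content and length trends removed, without or with the block, the counts were 6 for EV auxin, 8 for FL and 10 for H373R against EV untreated, 8 for FL and 7 for H373R against EV auxin, and 4 for H373R against FL. Without the block, all genes called were, in the same order, 5018, 7383 and 8156 against EV untreated. They were 5780 and 4952 against EV auxin, and 2197 for H373R against FL, of 16420 tested. For FL against EV auxin the 6 became 3 with limma on log2(TPM + 1), 3 on log2(TPM + 0.1), 3 without the filter, and 3 to 7 with a library left out. For H373R against EV auxin the 5 became 3 at an adjusted p under 0.01, 1 with limma on unfiltered log2(TPM + 1), and 1 to 6 with a library left out. For H373R against FL the 1 became 2 with no filter on low counts, 2 with only the libraries compared, 0 at an adjusted p under 0.01, 0 with limma on log2(TPM + 0.1), 0 on unfiltered log2(TPM + 1), and 0 to 2 with a library left out. With a library left out FL against EV untreated gave 5 to 6 and H373R against EV untreated 6 to 8. The cause of these shifts was not tested, except that leaving out a library leaves fewer samples.

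With the replicate number as a block, 5 members were called in FL against EV auxin, Sox2 being lost, and the members called in the other 5 comparisons were the same. For same-numbered libraries of different groups the correlation of their deviations across genes was -0.087 to 0.28, and over 0.1 in 3 of 15 pairs. With unlike numbers it was -0.20 to 0.13, and over 0.1 in 1 of 30 pairs. The highest value was that of EV untreated replicate 1 with FL replicate 1. Whether same-numbered libraries shared more than a number was not tested. The counts of all genes called ran for H373R against FL from 436 at an adjusted p under 0.01 to 2323 without EV untreated replicate 1, against 979. For H373R against EV untreated they ran from 5204 at an adjusted p under 0.01 to 8927 without EV untreated replicate 1, against 7292. For H373R against EV auxin they ran from 1502 without EV auxin replicate 1 to 5909 with only the libraries compared, against 3570, and for EV auxin against EV untreated from 1569 without EV auxin replicate 2 to 5444 without EV untreated replicate 1, against 3392. FL against EV auxin ran from 1879 without EV auxin replicate 2 to 5800 without EV untreated replicate 1, against 4016, and FL against EV untreated from 3980 at an adjusted p under 0.01 to 7706 without EV untreated replicate 1, against 6052.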
